A study of Homo sapiens with 8 samples.

Results

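The genes described here are 34 genes of the integrated stress response that runs through the transcription factor ATF4, together with the enzymes of serine synthesis and folate one-carbon metabolism. They were taken from the 58302 genes of the deposited table by their symbols; the list of symbols was drawn up with earlier results of these data known. The study treated HCT116 p53+/+ cells, an established human colon cancer line with wild-type p53, with 1 µM MANIO, a compound known here by its code name, or with the solvent DMSO, and collected RNA 24 hours later. Each group held 4 cultures, described by the labels as biological replicates, all grown in the same medium. The design asks whether the compound engages transcription of p53-responsive genes. Because RNA was taken from whole cultures, a change in the cells that carry a transcript and a change in transcript per cell cannot be told apart.

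In the integrated stress response, kinases that sense amino acid shortage, haem shortage, double-stranded RNA or misfolded protein phosphorylate the initiation factor eIF2. General translation then slows, while the mRNA of ATF4 is translated more efficiently, so that ATF4 activity is set largely at the level of protein. ATF4 and its partners of the C/EBP family bind a composite DNA element and raise genes for amino acid supply, redox balance and feedback. In colon cancer cells several of these targets, above all the serine and mitochondrial folate enzymes, are abundant also without acute stress and feed nucleotide synthesis.

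Library totals ranged from 27945196 to 31750628 counts in DMSO and from 29270359 to 32509020 counts in MANIO, and the members together took 0.351% to 0.381% of the counts in DMSO and 0.322% to 0.336% in MANIO. Mitochondrially encoded genes took 4.82% to 5.21% of the counts in DMSO replicates 2 to 4, 7.48% in DMSO replicate 1 and 6.70% to 7.62% in MANIO, and the part of this difference in the results below was not tested. Levels are given in counts-per-million (CPM), with library totals scaled by TMM, the trimmed mean of M-values, and with the SD over the 4 libraries of a group. Log2 fold changes are MANIO over DMSO, with their standard error (SE), and a gene is said to rise, to fall or to be called where its adjusted p was under 0.05. Epithelial markers such as KRT18 (an epithelial keratin, 725 ± 57.3 CPM in DMSO) and CDH1 (E-cadherin, 102 ± 5.92 CPM) were present, while VIL1, CDX1 and CDH17, markers of differentiated intestine, had 33, 2 and 9 counts over all 8 libraries. Of the other intestinal markers, CDX2 was at 15.7 ± 1.58 CPM in DMSO and 18.3 ± 1.97 CPM in MANIO and KRT20 at 1.57 ± 0.177 and 1.54 ± 0.311 CPM. KRT8, KRT18, CDH1 and CDX2 rose in MANIO (log2 fold changes of 0.38, 0.37, 0.32 and 0.22), and EPCAM and KRT20 did not pass. The 12 markers of fibroblasts, endothelium and leukocytes summed to 22.5 to 27.7 CPM in DMSO and 39.9 to 48.1 CPM in MANIO, nearly all of it from the collagen gene COL1A1, which rose (log2 fold change 0.88). Without COL1A1 the sums were 1.21 to 1.71 and 0.976 to 1.84 CPM, and 7 of the 12 genes had at most 10 counts over all libraries. The endothelial gene VWF fell (log2 fold change -1.35) and PDGFRB, a receptor of mural cells and fibroblasts, rose (1.06). Both had few reads, 5 to 30 per library for VWF and 11 to 33 for PDGFRB, whose groups overlapped. VWF passed the filter on low counts through its DMSO libraries, so at its level in MANIO only a fall could be found. The part of the markers in the results was not tested.

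The 25 members that changed moved in both directions, all but NUPR1 by less than 2-fold. Genes of stress signalling and feedback were split, with PPP1R15A, ADM2 and STC2 higher and TRIB3, EIF4EBP1 and CEBPG lower in MANIO. NUPR1 was also higher, but it passed the filter on low counts through its MANIO libraries alone, so only a rise could be found. Among the biosynthetic enzymes the falls prevailed: PHGDH and PYCR1 each fell 1.56-fold, and 4 of 6 folate enzymes fell by up to 1.34-fold, while the groups overlapped for MTHFD2. ATF4 mRNA itself was slightly lower, by 1.11-fold.

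Of the 34 members, 32 had enough counts to be tested; VLDLR and CBS did not. Among these 32, the quasi-likelihood test of edgeR called 10 higher and 15 lower in MANIO at an adjusted p under 0.05, and 7 did not pass. The rises here and in the counts that follow include NUPR1, which could be called only in that direction. Across all 15712 tested genes the same rule called 27.8% higher and 26.8% lower, 54.6% in all, against 31.25% and 46.9% of the members. These shares over all tested genes are also the background for the counts of each role group and related list below. Members are more abundant than the average gene, with a median level of 62.0 CPM against 21.8 CPM over all tested genes. Of tested genes with a mean of 10 CPM or more 58.8% were called, against 23 of the 28 members at that level. The median log2 fold change was -0.10 over the members and 0.0043 over all tested genes; the median over the members was -0.04 without DMSO replicate 3 and -0.14 without DMSO replicate 1. The typical called change was small in both, 1.28-fold among members and 1.34-fold among all called genes. MANIO libraries lay entirely above the DMSO libraries for 9 members and entirely below for 15, where these shares were 24.7% and 23.7% (48.3% together) over all tested genes. Tested against a limit of 1.2-fold, 4 members rose (PPP1R15A, NUPR1, STC2 and ADM2) and 7 fell (TRIB3, EIF4EBP1, XPOT, PHGDH, MTHFD1, MTHFD1L and PYCR1), where the background was 14.7% and 11.6%.

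**Figure D1:**
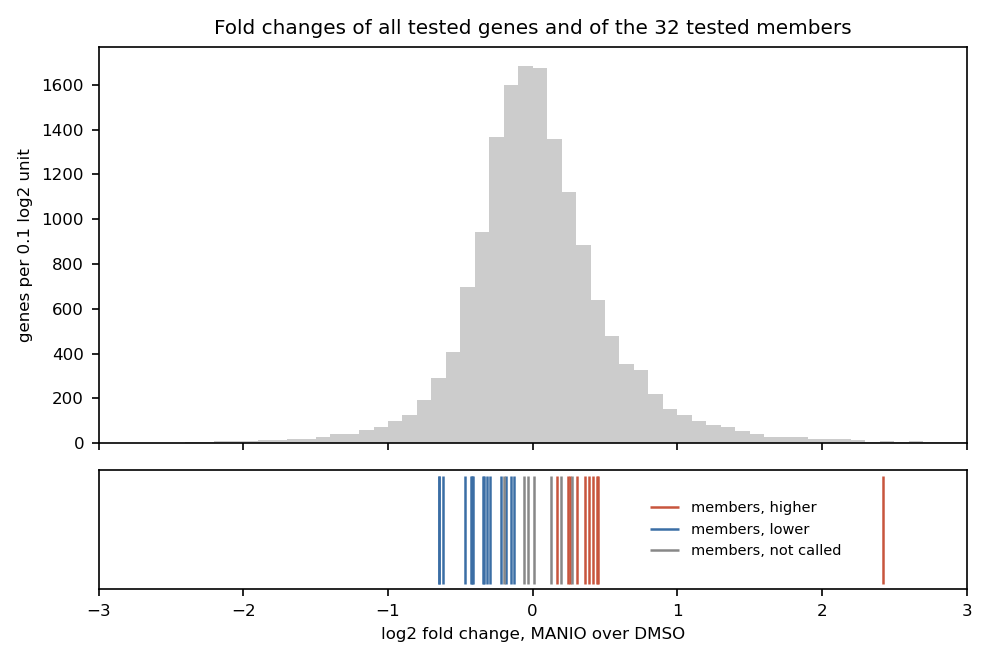
Top, histogram of the log2 fold changes (MANIO over DMSO) of all tested genes, in steps of 0.1, for the 15663 genes between -3 and 3 (49 lie outside). Bottom, 1 line per tested member on the same axis. All members but NUPR1 lie between -0.65 and 0.45, within the bulk of the distribution.

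Among the sensors and phosphatase subunits, the largest change was a rise of PPP1R15A. Its product, GADD34, is the inducible subunit that brings a phosphatase to eIF2 and so ends the response. The level was 58.7, 56.4, 68.0 and 57.0 CPM in DMSO replicates 1 to 4 and 86.0, 80.3, 86.3 and 76.6 CPM in MANIO replicates 1 to 4. Even DMSO replicate 3, the highest of its group, stayed below the lowest MANIO library, and the difference was 1.37-fold (log2 fold change 0.45, SE 0.0671, edgeR adjusted p = 4.3e-05). PPP1R15B, the constitutive counterpart known as CReP, was at 140.5 ± 2.88 CPM in DMSO and 138 ± 6.18 CPM in MANIO (edgeR adjusted p = 0.646). Counted within each library, there were 0.427 ± 0.0312 reads of PPP1R15A per read of PPP1R15B in DMSO and 0.600 ± 0.0604 in MANIO, a ratio chosen after the values were seen and independent of how the libraries are scaled.

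EIF2AK4 encodes GCN2, the kinase that senses uncharged tRNA. It went from 111, 111, 105 and 106 CPM in DMSO to 125, 123, 118 and 120.4 CPM in MANIO. The groups did not overlap, yet the rise was only 1.12-fold (log2 fold change 0.17, SE 0.0484, edgeR adjusted p = 0.00903), and without a filter on low counts it was not called (adjusted p = 0.0560). EIF2AK1, the gene of the haem-sensing kinase HRI, was at 239, 244, 231 and 241 CPM in DMSO and 224, 218, 212 and 219 CPM in MANIO. These groups also lay apart, with MANIO lower by 1.09-fold (log2 fold change -0.13, SE 0.0470, edgeR adjusted p = 0.0302). That call was lost without DMSO replicate 2, DMSO replicate 4, MANIO replicate 2 or MANIO replicate 3 (edgeR adjusted p from 0.0571 to 0.0897) and without a filter on low counts (0.0599).

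Of 17 other genes around eIF2, 5 rose, 5 fell and 7 did not pass, shares near the 27.8% and 26.8% of all tested genes. The median of their log2 fold changes was -0.07. They include the kinase genes EIF2AK2 (PKR, 0.05) and EIF2AK3 (PERK, -0.12), neither of which passed. EIF2B3, a subunit of the exchange factor that reloads eIF2, fell from 21.9 ± 2.29 to 16.2 ± 0.267 CPM (log2 fold change -0.43, edgeR adjusted p = 1.9e-04). EIF2A, an alternative initiation factor, fell from 204 ± 11.6 to 163 ± 9.62 CPM (-0.32).

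Of the 7 transcription factor genes, 3 rose, 2 fell and 2 did not pass, where 27.8% of all tested genes rose and 26.8% fell. ATF4, on chromosome 22 at 39519695 to 39522685 (GRCh38), was the most abundant member per length of its exons, at 181 CPM per kb in DMSO. That length merges all annotated exons of a gene and is not that of the transcript expressed, so such an order depends on the annotation. Its level was 452, 465, 478 and 426 CPM in DMSO and 419, 416, 409 and 394 CPM in MANIO. The lowest DMSO library, replicate 4, was just above the highest MANIO library, and the groups differed by 1.11-fold (log2 fold change -0.15, SE 0.0523, edgeR adjusted p = 0.0222). The call was lost without DMSO replicate 2 (edgeR adjusted p = 0.0532), DMSO replicate 3 (0.0787) or MANIO replicate 4 (0.0538). Of the 31-base words in its transcripts, 29.7% also occur in transcripts of other genes, chiefly ATF4 pseudogenes. The share of its reads that this affects is not known.

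NUPR1, on chromosome 16 at 28532708 to 28539174, encodes a small stress-induced chromatin protein and had the largest change of all members. It held 8, 9, 9 and 6 reads in DMSO replicates 1 to 4 and 42, 62, 49 and 37 reads in MANIO replicates 1 to 4. On the CPM scale this was 0.298, 0.314, 0.286 and 0.213 in DMSO and 1.33, 1.89, 1.55 and 1.24 in MANIO. The lowest MANIO library was well above the highest DMSO library, a 5.36-fold rise (log2 fold change 2.42, SE 0.234, edgeR adjusted p = 6.3e-07). NUPR1 was also the least abundant tested member per length, and it passed the filter on low counts through its MANIO libraries alone, so that a rise was the only change the test could have found at this level in DMSO; without the filter the log2 fold change was 2.41 and NUPR1 was again called higher.

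DDIT3 encodes CHOP, the factor that drives the later, pro-apoptotic part of the response. It was at 13.9, 15.5, 15.6 and 14.1 CPM in DMSO and 17.6, 18.2, 16.7 and 18.3 CPM in MANIO. The groups lay apart by a small margin, and the rise was 1.196-fold (log2 fold change 0.26, SE 0.0684, edgeR adjusted p = 0.00486). In DDIT3, 39.6% of the exonic bases overlap other genes, among them MARS (MARS1), which fell (log2 fold change -0.37), and the library kit does not mark the strand. ATF5, a paralogue of ATF4 with similar translational control, was at 18.1, 24.7, 23.5 and 24.0 CPM in DMSO and 27.2, 29.9, 31.6 and 27.3 CPM in MANIO. DMSO replicate 1 was the lowest of all, every MANIO library was above every DMSO library, and the rise was 1.28-fold (log2 fold change 0.36, SE 0.0891, edgeR adjusted p = 0.00316); 23.7% of its exonic bases overlap other genes.

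CEBPG, the C/EBP partner with which ATF4 forms dimers on its target elements, changed the other way. Its level was 78.6, 74.4, 76.1 and 73.3 CPM in DMSO and 56.7, 60.0, 59.3 and 63.6 CPM in MANIO. All 4 MANIO libraries were below all DMSO libraries, a 1.26-fold fall (log2 fold change -0.34, SE 0.0538, edgeR adjusted p = 9.0e-05). CEBPB and JDP2, which encode a stress-inducible C/EBP factor and a repressor of the AP-1 family, did not pass. In DMSO they were the members with the widest spread relative to the mean. CEBPB was at 23.7 ± 4.69 CPM in DMSO and 22.7 ± 4.96 CPM in MANIO (edgeR adjusted p = 0.785). JDP2 was at 11.1 ± 2.65 and 9.74 ± 0.783 CPM (edgeR adjusted p = 0.264). Without DMSO replicate 1, where JDP2 was lowest at 7.96 CPM, it was called lower (log2 fold change -0.33, edgeR adjusted p = 0.0155).

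**Figure D2:**
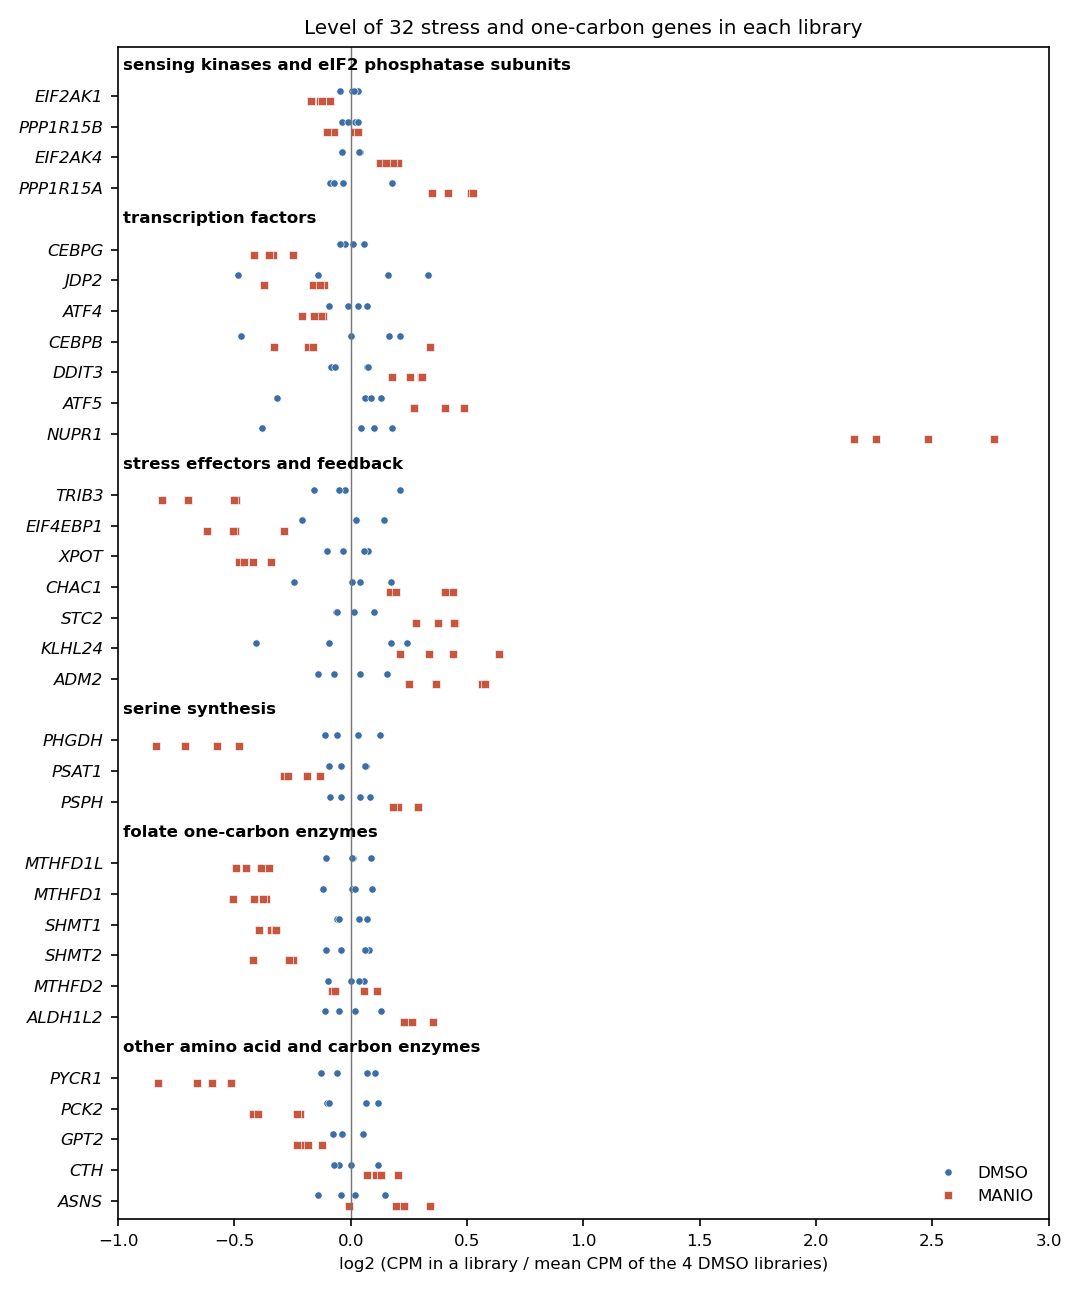
Each point is 1 library, placed by the log2 ratio of its CPM to the mean of the 4 DMSO libraries, for the 32 tested genes grouped by role (circles DMSO, squares MANIO). NUPR1 is far to the right, PHGDH, PYCR1 and TRIB3 are farthest to the left, and PSPH lies opposite to PHGDH and PSAT1.

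A further list held 21 genes with a C/EBP name or of bZIP factors, not all of them known partners of ATF4 or CHOP. Of these, 8 rose, 4 fell and 9 did not pass (median log2 fold change 0.14). Over all tested genes 27.8% rose and 26.8% fell. Without MANIO replicate 2 the number that rose in this list was 5. JUN, a subunit of AP-1, went from 19.6 ± 0.633 to 44.2 ± 5.02 CPM (1.17 on the log2 scale, edgeR adjusted p = 1.4e-08), and FOSL2, another AP-1 subunit, from 26.7 ± 0.978 to 45.4 ± 1.35 CPM (0.76).

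The promoters were read for the element that ATF4 and C/EBP factors recognise, written TGATGNAA and searched on both strands from 250 bases before to 50 bases after each start site. RefSeq's promoter table on GRCh38.p14 held 26 of the 34 members. Of these, 6 (23.1%) had a match, against 4.46% of the 27305 gene symbols in the table. A longer list of start sites per gene raises this chance. Over single windows the shares were 8 of 42 (19.0%) and 3.62%. The members were listed as genes of the ATF4 response, so the higher share is no independent result about them. The matches are shown with 11 bases on each side, on the strand of the gene, because this is the element these factors are known to recognise; capitals mark the match, which is a description of the letters and not a binding site shown here.

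ASNS (chr7:97872458-97872487, minus strand): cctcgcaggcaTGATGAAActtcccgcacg
CHAC1 (chr15:40953251-40953280, plus strand): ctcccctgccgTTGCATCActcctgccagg
CEBPG (chr19:33374060-33374089, plus strand): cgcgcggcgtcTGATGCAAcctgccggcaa
MTHFD1L (chr6:150866346-150866375, plus strand): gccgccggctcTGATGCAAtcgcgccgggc
JDP2 (chr14:75427995-75428024, plus strand): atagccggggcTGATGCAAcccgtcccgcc
PPP1R15B (chr1:204412026-204412055, minus strand): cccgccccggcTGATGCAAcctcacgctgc

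The match began 68 bases before the start site in ASNS, 209 in CHAC1, where it is on the opposite strand, 42 in CEBPG, 129 in MTHFD1L, 16 in JDP2 and 227 in PPP1R15B. These 6 genes did not share a direction: CHAC1 rose, CEBPG and MTHFD1L fell, and ASNS, JDP2 and PPP1R15B did not pass. The members with the largest changes and a window in the table, TRIB3 and PHGDH, had no such letters in it, which says nothing of the factor's binding elsewhere.

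All 7 tested genes of the effector and feedback group were called, 4 upward and 3 downward, where 54.6% of all tested genes were called. TRIB3, a pseudokinase that binds ATF4 and CHOP and dampens them, lies on chromosome 20 at 362835 to 397559. Its level was 69.3, 81.7, 68.1 and 63.3 CPM in DMSO and 50.2, 49.9, 43.4 and 40.2 CPM in MANIO. DMSO replicate 2 was highest, and the lowest DMSO library was above every MANIO library. The fall was 1.54-fold (log2 fold change -0.62, SE 0.0863, edgeR adjusted p = 3.2e-05). TRIB3 is one of the genes CHOP is known to raise. The ratio of DDIT3 to TRIB3 reads within a library, formed after the values were seen, went from 0.211 ± 0.0181 to 0.389 ± 0.0461.

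XPOT, the exportin of mature tRNA, was at 229.8, 227, 213 and 203 CPM in DMSO and 157, 163, 159 and 172 CPM in MANIO. The groups lay far apart relative to their spread, a 1.34-fold fall (log2 fold change -0.42, SE 0.0549, edgeR adjusted p = 1.2e-05). EIF4EBP1, which encodes the translation repressor 4E-BP1, fell by 1.39-fold, from 66.6 ± 6.67 to 48.1 ± 4.69 CPM (log2 fold change -0.47, edgeR adjusted p = 1.6e-04).

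STC2, a secreted glycoprotein of calcium and phosphate balance, was at 58.1, 61.1, 65.0 and 58.2 CPM in DMSO and 73.5, 82.8, 82.4 and 78.7 CPM in MANIO. Each MANIO library exceeded each DMSO library, and the rise was 1.31-fold (log2 fold change 0.39, SE 0.0587, edgeR adjusted p = 5.4e-05). ADM2, a peptide hormone of the calcitonin family, rose 1.36-fold, from 8.77 ± 0.794 to 11.9 ± 1.298 CPM (edgeR adjusted p = 9.6e-04). CHAC1, which degrades glutathione, and KLHL24, an adaptor of a ubiquitin ligase, rose with overlapping groups. CHAC1 went from 8.64 ± 1.01 to 10.7 ± 1.04 CPM (log2 fold change 0.31, edgeR adjusted p = 0.0155), a call lost without MANIO replicate 2 (0.0564). KLHL24 went from 22.4 ± 4.36 to 29.8 ± 3.75 CPM (0.42, edgeR adjusted p = 0.0180), a call lost without MANIO replicate 4 (0.0599). VLDLR, a lipoprotein receptor that PERK and ATF4 are known to raise, had 0 counts in all 8 libraries, which allows up to 0.0125 CPM over their 240821885 counts, as far as counting error goes.

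Of 19 other known ATF4 and CHOP targets 16 were tested, and here rises prevailed: 9 rose, 3 fell and 4 did not pass. The median of their log2 fold changes was 0.33. ATF3, a stress-induced repressor, went from 19.1 ± 1.04 to 100.0 ± 2.99 CPM (log2 fold change 2.39, edgeR adjusted p = 6.0e-13). LAMP3, a lysosomal membrane protein, went from 6.48 ± 0.709 to 20.4 ± 1.96 CPM (1.66, edgeR adjusted p = 2.5e-09), and SESN2, an inhibitor of mTORC1, from 26.9 ± 2.38 to 57.6 ± 4.84 CPM (1.10). ATF3 and SESN2, named as examples, are also textbook targets of p53, so this list is not one of ATF4 alone. How many of its other rises are shared with p53 was not tested. Of 16 genes of the IRE1 and ATF6 arms of the unfolded protein response, 14 fell, 1 rose and 1 did not pass (median -0.33). MANF, a secreted ER stress protein, was at 94.4 ± 2.53 CPM in DMSO and 62.2 ± 2.13 CPM in MANIO (log2 fold change -0.60). The disulfide isomerase gene PDIA4 went from 474 ± 16.4 to 327 ± 9.47 CPM (-0.53).

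**Figure D3:**
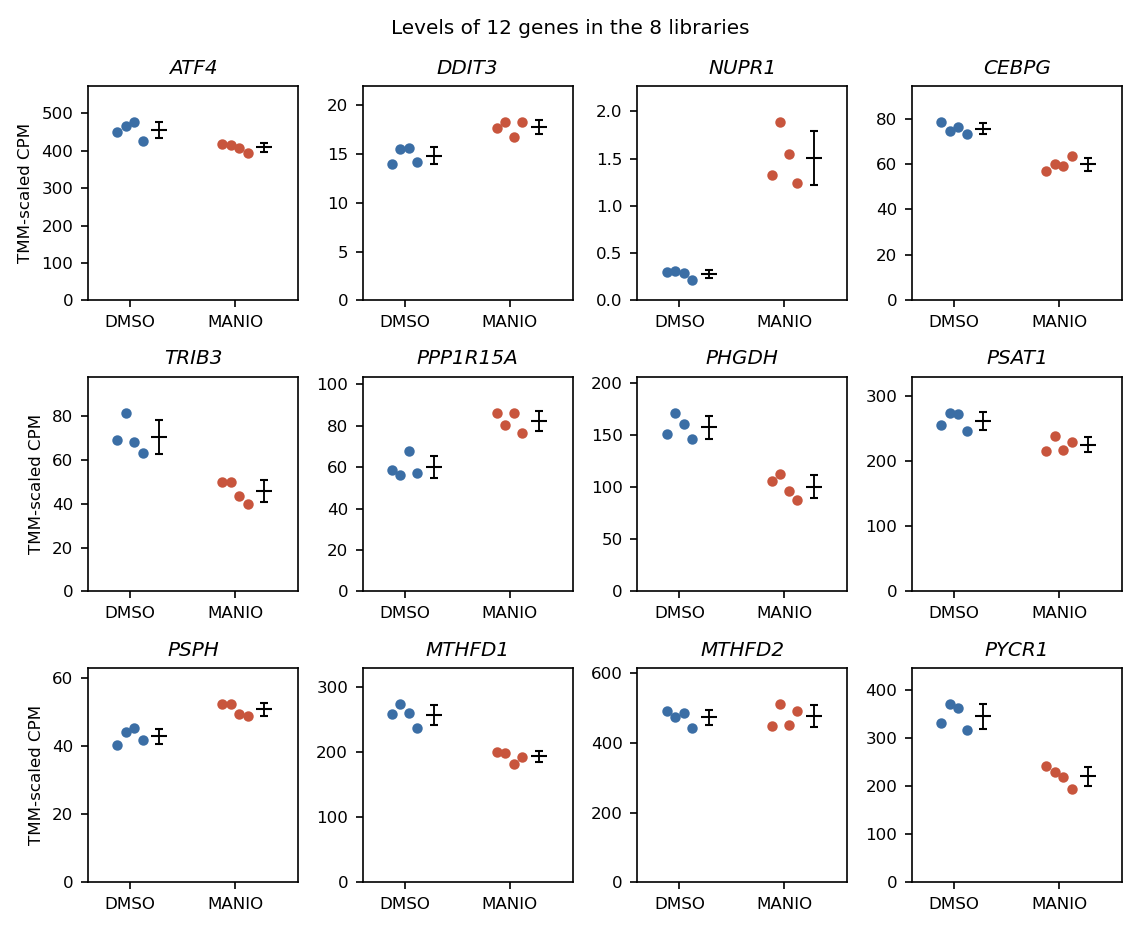
TMM-scaled CPM of 12 members in each library, on axes that start at 0, with the mean and SD of the 4 libraries drawn beside the points. The groups are apart for all of these genes except MTHFD2, and DDIT3, NUPR1, PPP1R15A and PSPH are the ones that lie higher in MANIO.

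The 3 enzymes that make serine from 3-phosphoglycerate did not move together. PHGDH, which catalyses the first step, lies on chromosome 1 at 119648411 to 119744226. It was at 151, 172, 161 and 146 CPM in DMSO and 106, 113, 96.1 and 88.3 CPM in MANIO. The highest MANIO library, replicate 2, was far below the lowest DMSO library, replicate 4, and the fall was 1.56-fold (log2 fold change -0.64, SE 0.0745, edgeR adjusted p = 4.1e-06).

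PSAT1, the aminotransferase of the middle step, was at 255, 275, 273 and 246 CPM in DMSO and 215, 239, 218 and 230.1 CPM in MANIO. Its groups were apart by less, with a 1.16-fold fall (log2 fold change -0.22, SE 0.0556, edgeR adjusted p = 0.00387). PSPH, the phosphatase of the last step, was at 40.3, 44.0, 45.3 and 41.7 CPM in DMSO and 52.3, 52.3, 49.4 and 48.6 CPM in MANIO. Here every MANIO library was above every DMSO library, and the rise was 1.18-fold (log2 fold change 0.24, SE 0.0579, edgeR adjusted p = 0.00246). Within a library, PSPH had 0.272 ± 0.0135 reads per PHGDH read in DMSO and 0.505 ± 0.0368 in MANIO (SD, n = 4 each), a 1.86-fold difference that does not depend on scaling and was computed after the opposite directions were seen. Of the 31-base words of PSPH and PSAT1 transcripts 17.2% and 15.4% occur in other genes, among them their own pseudogenes. For XPOT, MTHFD1 and NUPR1 this share was 20.55%, 18.44% and 14.65%, with pseudogenes of XPOT and MTHFD1 among the genes that share words.

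Of the 6 folate enzymes 4 fell, and the other 2 did not pass. In the cytosol, SHMT1 and MTHFD1 exchange one-carbon units between serine, folate and formate, while SHMT2, MTHFD2, MTHFD1L and ALDH1L2 do so in mitochondria. The falls were found on both sides. MTHFD1 was at 259, 275, 261 and 237 CPM in DMSO and 201, 199, 182 and 193 CPM in MANIO. Every DMSO library was higher, by 1.33-fold on average (log2 fold change -0.41, SE 0.0561, edgeR adjusted p = 1.9e-05).

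SHMT1 was at 70.6, 77.3, 75.5 and 71.2 CPM in DMSO and 58.0, 56.1, 58.8 and 59.0 CPM in MANIO. Both groups were narrow and well apart, a 1.27-fold fall (log2 fold change -0.35, SE 0.0528, edgeR adjusted p = 5.9e-05). MTHFD1L, the mitochondrial formate-producing enzyme, was at 108, 114, 108 and 99.4 CPM in DMSO and 82.1, 83.9, 76.0 and 78.4 CPM in MANIO. This was a 1.34-fold fall with no overlap (log2 fold change -0.42, SE 0.0561, edgeR adjusted p = 1.7e-05). MTHFD1L spans 236 kb. Of the 2200 tested genes spanning 100 to 300 kb 39.4% fell and 21.0% rose, with a median log2 fold change of -0.09. The only other member in that range, EIF2AK4, spans 101 kb and rose 1.12-fold, a call lost without a filter on low counts. The part of gene length in either change was not tested.

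SHMT2, which supplies mitochondria with one-carbon units from serine, fell 1.23-fold, from 270.3 ± 16.3 to 220.3 ± 12.3 CPM (log2 fold change -0.30, edgeR adjusted p = 5.7e-04). MTHFD2, the dehydrogenase next to it in the pathway and the member with the highest CPM, was at 492, 474, 484 and 442 CPM in DMSO and 447, 512, 452 and 491 CPM in MANIO. The groups overlapped fully, with a log2 fold change of 0.0071 (SE 0.0587, edgeR adjusted p = 0.928), whose sign turned in 6 of 14 alternative analyses. Relative to MTHFD1 in the same library, MTHFD2 reads went from 1.84 ± 0.0769 to 2.46 ± 0.157 per read, and relative to MTHFD1L from 4.42 ± 0.177 to 5.94 ± 0.354. The ratio of SHMT2 to SHMT1 was 3.67 ± 0.0753 in DMSO and 3.80 ± 0.272 in MANIO, with overlapping groups. These ratios were formed after the values were seen, and 33.2% of the exonic bases of MTHFD2 overlap SLC4A5 and AC006030.1 on the other strand, while 39.2% of its 31-base words occur in other genes, its pseudogenes included. ALDH1L2, which releases carbon dioxide from formyl-folate, was low, at 2.11 ± 0.151 CPM in DMSO and 2.54 ± 0.105 CPM in MANIO; its groups lay apart but it did not pass (log2 fold change 0.27, edgeR adjusted p = 0.0716).

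Of 27 other genes of the folate and methionine cycles 25 were tested, and 3 rose, 9 fell and 13 did not pass (median log2 fold change -0.16). Over all tested genes 27.8% rose and 26.8% fell. ALDH1L1, the cytosolic relative of ALDH1L2, went from 0.571 ± 0.130 to 1.42 ± 0.161 CPM (1.31, edgeR adjusted p = 6.0e-05), and AHCYL1, a relative of the homocysteine-forming hydrolase, from 168 ± 8.28 to 138 ± 5.12 CPM (-0.28, edgeR adjusted p = 3.3e-04).

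Among the other amino acid and carbon enzymes 3 fell and 2 did not pass. PYCR1, the mitochondrial enzyme that completes proline synthesis, lies on chromosome 17 at 81932384 to 81942412. It was at 332, 371, 362 and 316 CPM in DMSO and 242, 228, 218 and 194 CPM in MANIO. All MANIO libraries were below all DMSO libraries, and the fall of 1.56-fold had the smallest p of all members that fell (log2 fold change -0.65, SE 0.0703, edgeR adjusted p = 2.2e-06); 29.7% of its exonic bases overlap other genes.

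PCK2, the mitochondrial carboxykinase that makes phosphoenolpyruvate, was at 47.2, 55.0, 53.1 and 47.5 CPM in DMSO and 43.7, 43.2, 37.9 and 38.5 CPM in MANIO. The groups did not overlap, and the fall was 1.24-fold (log2 fold change -0.31, SE 0.0699, edgeR adjusted p = 0.00143). GPT2, the mitochondrial alanine aminotransferase, was at 49.4, 52.6, 52.6 and 48.1 CPM in DMSO and 44.1, 44.6, 46.6 and 43.2 CPM in MANIO. It fell 1.14-fold, again without overlap (log2 fold change -0.18, SE 0.0556, edgeR adjusted p = 0.0113).

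ASNS, asparagine synthetase and a standard readout of ATF4, was at 4.13, 4.61, 4.42 and 5.04 CPM in DMSO and 4.53, 5.33, 5.76 and 5.21 CPM in MANIO. The groups overlapped and the gene did not pass (log2 fold change 0.19, SE 0.105, edgeR adjusted p = 0.130). Its counts are few, 111 to 182 reads per library, and 44.6% of its exonic bases are shared on the same strand with AC079781.5, a gene annotated across the locus that itself held 12 to 37 reads; the sources used here do not say how reads that fit both were counted, so this level cannot be set against that of other genes. CTH, which makes cysteine from cystathionine, was at 9.93 ± 0.587 CPM in DMSO and 10.9 ± 0.426 CPM in MANIO (edgeR adjusted p = 0.155). CBS, the enzyme before it, had 2 reads in all, and 56.3% of its 31-base words occur elsewhere, above all in its near-identical copy CBSL, which had 0 reads; neither gene's level can be read from these counts.

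Around these enzymes, genes of amino acid uptake and tRNA charging were mostly lower. Of 12 amino acid transporter genes 11 were tested, of which 7 fell and 4 did not pass (median log2 fold change -0.27). SLC38A2, a glutamine and alanine carrier, went from 927 ± 52.9 to 679 ± 58.1 CPM (log2 fold change -0.45, edgeR adjusted p = 4.1e-05), and SLC7A11, the cystine importer, from 101 ± 5.11 to 71.0 ± 8.62 CPM (-0.51, edgeR adjusted p = 4.5e-05). Of 20 cytosolic tRNA synthetase genes 13 fell, 2 rose and 5 did not pass (median -0.20), and 1 of the rises was lost without DMSO replicate 2, DMSO replicate 4, MANIO replicate 2 or MANIO replicate 4. FARSB, a subunit of the phenylalanine enzyme, went from 137 ± 7.68 to 101 ± 4.93 CPM (-0.43 on the log2 scale), and AARS1, the alanine enzyme, from 325 ± 21.6 to 239.7 ± 13.2 CPM (-0.44). Of 14 further enzymes of proline, aspartate, alanine and glutamine 12 were tested, 5 rose and 3 fell (median -0.02), the falls dropping to 1 without DMSO replicate 2. ASS1, argininosuccinate synthase, went from 77.6 ± 7.52 to 109 ± 7.54 CPM (log2 fold change 0.49, edgeR adjusted p = 3.3e-05). Tested against a limit of 1.2-fold, the 138 tested genes of these 8 related lists held 16 that rose, 8 of them among the other ATF4 and CHOP targets, and 16 that fell, 6 of them in the IRE1 and ATF6 arm.

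**Figure D4:**
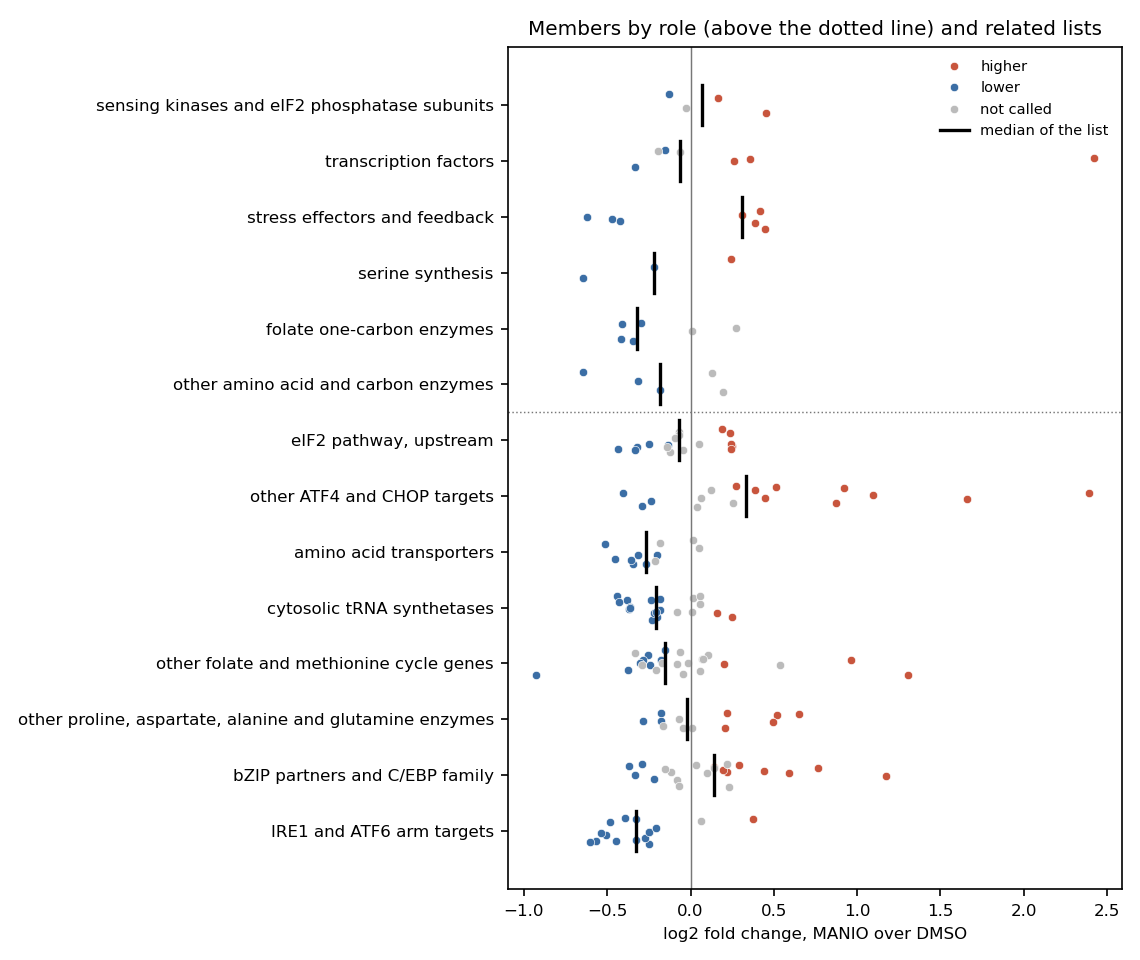
Log2 fold changes of single genes, coloured by the edgeR call at an adjusted p under 0.05, with the median of each list as a black bar. The 6 role groups of the members are above the dotted line, and the 8 related lists below it; rises prevail among the other ATF4 and CHOP targets, and falls among transporters, synthetases and the IRE1 and ATF6 arm.

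Per kb of merged annotated exons, the order of the members in DMSO was led by ATF4 (181 ± 8.80 CPM per kb), PSAT1 (119.9 ± 6.38), PYCR1 (119.5 ± 8.94), MTHFD2 (97.1 ± 4.45) and EIF4EBP1 (62.1 ± 6.22). The order could differ with the lengths of the transcripts expressed. PSAT1 and PYCR1 did not differ beyond their spread in DMSO, while in MANIO PYCR1 was at 76.4 ± 6.90 and PSAT1 at 103 ± 5.12 CPM per kb. At the other end were ALDH1L2 (0.248) and NUPR1 (0.0490 CPM per kb), beside VLDLR and CBS with almost no reads. Within a group the SD of a member was 2.05% to 23.8% of its mean in DMSO and 2.27% to 21.8% in MANIO, with medians of 5.99% and 5.51%; the highest was JDP2 in DMSO and CEBPB in MANIO. DMSO replicate 1, the library with the high mitochondrial share, was the lowest of its group for 13 of the 32 members and the highest for 7. DMSO replicate 4 was the lowest for 14 and the highest for 1, and MANIO replicate 4 the lowest for 14 and the highest for 7. Without DMSO replicate 1 the members' counts were 10 higher and 16 lower, the added gene being JDP2.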

How the data were processed

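RNA-seq libraries (TruSeq RNA kit, version 2, which does not mark strand) of 4 DMSO and 4 MANIO cultures were sequenced by the authors, per the labels' protocols. Per the submitters' processing notes FastQC 1.3, STAR 2.5.3a, HTSeq, DESeq2 and GRCh38 were used; the sources used here give neither the annotation release nor the treatment of reads that map to several genes. The deposited values are raw read counts per gene; their totals are above the number of raw reads per sample that the labels state, which the sources used here do not explain. From them, edgeR 4.0.16 (R 4.3.3) kept 15712 genes with enough counts (filterByExpr), scaled the libraries by TMM and ran the quasi-likelihood F test of MANIO against DMSO, adjusted by Benjamini and Hochberg over all tested genes (threshold 0.05). A symbol present more than once was read from the row with most counts. Gene positions, exon overlaps and shared 31-base words come from GENCODE 29, which held 58039 of the 58302 gene IDs; promoters come from RefSeq.

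The members and the related lists were chosen with earlier results of these data known. All 34 members are named; all 8 values are given for ATF4, DDIT3, ASNS, PHGDH, MTHFD2 and the 3 members with the smallest p in each role group. Of each related list the 2 genes with the smallest p are named, and ATF3 and SESN2 in any case (1 gene that this rule names is not reported here); EIF2AK2, EIF2AK3, MARS1 and the marker genes were named after their values were seen. Alternatives were upper-quartile and RLE scaling, DESeq2 1.42.0, no count filter, a test against 1.2-fold, the replicate number as a block, and leaving out each library.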

Additional observations from a re-analysis of the deposited data

Results flagged for a closer look

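Among 70 groups of 4 libraries checked for a single library far from the others, 2 had one, and chance alone gives about 1 in 20. SHMT2 was at 201.9 CPM in MANIO replicate 4, while the other MANIO libraries lay between 224.6 and 227.8 CPM, so that the gap took 0.874 of the range of the group. Without that library SHMT2 was still called lower, with a log2 fold change of -0.25. The share of mitochondrially encoded genes was 7.48% in DMSO replicate 1 against 4.815% to 5.212% in the other DMSO libraries (0.851 of the range).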

How the results depend on the processing

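Between the scalings (TMM, upper quartile, RLE), DESeq2, no count filter, the replicate block and the removal of single libraries, the counts over all genes, all members and all related genes moved by less than 1.5 times; counts of single lists moved by more, as given beside them or beside their genes. Leaving out 1 library gave 3962 to 4389 genes higher and 3829 to 4233 lower, 9 to 10 members higher and 13 to 16 lower, and 27 to 34 related genes higher and 51 to 58 lower. The stricter test against 1.2-fold gave 2302 and 1830 genes, 4 and 7 members, and 16 and 16 related genes higher and lower. With the replicate block 4491 genes were higher and 4354 lower, with 10 and 15 members and 35 and 61 related genes. Same-numbered libraries correlated by 0.0385 to 0.163 after removal of the group means, over 0.1 for 2 of 4 pairs, and not every library correlated best with its own number, so the numbers were not taken to pair the cultures. Of the 25 called members 11 kept their call under all 14 alternatives; the other 14 lost it under at least 1, most often under the test against 1.2-fold. The sign turned for 2 members that were not called. MTHFD2 went to -0.0065 with upper-quartile scaling, -0.0031 with DESeq2 and -0.0095 without a count filter, and ranged from -0.029 to 0.037 without single libraries, below 0 without DMSO replicate 4, MANIO replicate 2 or MANIO replicate 4. CEBPB ranged from -0.22 to 0.017 without single libraries, above 0 without DMSO replicate 3 or MANIO replicate 4. The cause was not tested. NUPR1 and ALDH1L2 had few reads and VLDLR had none, which limits what can be read from their levels. ASNS and CBS had few reads and also share sequence with other genes. The part of shared sequence in their counts was not tested.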

Other observations

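Within each library ATF5 had 0.0497 ± 0.00702 reads per ATF4 read in DMSO and 0.0709 ± 0.00521 in MANIO, PSAT1 had 1.67 ± 0.0455 and 2.26 ± 0.253 reads per PHGDH read, and MTHFD2 had 1.76 ± 0.136 and 2.17 ± 0.216 reads per SHMT2 read (SD, n = 4 each). The ATF5 to ATF4 and PSAT1 to PHGDH groups did not overlap, while DMSO replicate 1 and the lowest MANIO library nearly met for MTHFD2 to SHMT2, at 1.956 and 1.971. These pairs were chosen after the values were seen.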
